A study of Nannochloropsis oceanica with 18 samples.

Results

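Acetylation of lysine 27 on histone H3 (H3K27ac) was compared between *Nannochloropsis oceanica* IMET1 cells kept for 2 days (N2) and for 1 day (N1) under nitrogen deprivation (ND). All 3803 of 3803 regions of the deposited table entered, with the 4 H3K27ac libraries of N2 and N1 out of 18 libraries in the series (2 per condition). H3K27ac was profiled by chromatin immunoprecipitation sequencing (ChIP-seq), in which an antibody pulls down DNA wrapped around histones that carry a mark, beside lysine crotonylation (Kcr) and dimethylation of lysine 36 on histone H3 (H3K36me2). N2 and N1 cells came from a logarithmic culture of the same strain in nitrogen-containing f/2 medium, were pelleted and washed 3 times with nitrogen-free medium, and were then kept in that medium under continuous light weaker than that of the seed culture. They differ in the labels by the time of collection. Cells of the nitrogen-replete (NR) culture before transfer (C0) serve here for the level at the start, and they differ from N1 and N2 by washing, transfer and light as well as nitrogen. Which H3K27ac antibody was used is not known, because labels and methods differ on it and the labelled catalogue number is also that of the H3K36me2 antibody.

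In plants and animals, acetylation of lysine 27 neutralises a positive charge on the histone tail and is typically found at promoters and other regulatory regions of active genes, where acetyltransferases add it and deacetylases remove it. Crotonylation is a related acyl mark of active chromatin, and H3K36me2 lies over the bodies of transcribed genes in many species. *N. oceanica* is a marine microalga that stores triacylglycerol when nitrogen runs out. The comparison asks which regions differ in H3K27ac once the first day of ND has passed. The regions lie on 30 chromosomes and range in width between 379 and 71931 bp (median 3004 bp). No annotation of the nuclear genes was used here, so regions are given by their name in the deposited table with chromosome, start and end. The ChIP-seq methods name the *N. oceanica* reference genome without a version, and neither that genome nor its annotation was used here, so that no gene, exon or promoter is assigned to any region.

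Each region has, in each library, a coverage value (pileup) and a local background (lambda), both deposited by the authors. The ratio used below is (pileup + 0.5) over (lambda + 0.5), its log2 is called the enrichment, and log2 differences are N2 minus N1 in enrichment unless the pileup is named. The paired libraries of a condition were closer to each other than counting noise allows for independent counts, although coverage summarised by its maximum or median can be that close too. Each condition was therefore counted as 1 sample (n = 1). Standard errors (SE) and p-values describe the spread among libraries, possibly a technical one, and the tests compare these libraries and not the conditions. The pileup moved in steps whose inverse was 1.96 and 2.22 M in N2 and 1.86 and 2.07 M in N1, which would be the number of fragments if 1 step is 1 fragment. Across regions, enrichment of both libraries correlated at r = 0.968 in N2 and 0.980 in N1.

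Enrichment of H3K27ac was less unevenly spread over the regions in the N2 libraries than in the N1 libraries. Many strongly marked regions had lower ratios in N2, and many regions with little mark had higher ones. The median ratio was 1.87 and 1.88 in the N2 libraries, against 2.30 and 2.23 in the N1 libraries. The SD of enrichment over regions was 0.86 in both N2 libraries, against 1.25 and 1.22 in N1. Both ends of the distribution moved inwards. The 5th percentile of the ratio was 0.56 and 0.55 in N2, against 0.33 and 0.32 in N1, and the 95th percentile was 3.32 and 3.34 in N2, against 4.10 and 4.05 in N1. A ratio of at least 4 was found in 66 and 73 regions in N2 and in 224 and 205 regions in N1. The order of the regions was largely kept, since enrichment in N2 and N1 correlated at r = 0.95 across regions, which are not independent replicates and share the input background. For Kcr the SD over regions was 0.74 in N2 and 0.70 in N1, while the interquartile range was 1.03 in N2 and 1.24 in N1. With n = 1 per condition, a narrower spread of the mark and a difference between the libraries cannot be told apart.

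By limma with Benjamini-Hochberg adjustment over the 3803 regions, 745 regions (19.6%) were higher and 1585 (41.7%) lower in N2, 61.3% in all. The median difference was -0.14. A called difference of at least 2-fold was found in 148 regions that were higher (3.89%) and 18 that were lower (0.473%), against 18 and 21 after quantile normalization. Both N2 libraries lay above both N1 libraries in 1047 regions and below both in 1913, so that libraries did not overlap in 77.8% of the regions. The balance of the calls depended on the scale. It was 1046 higher and 1047 lower after centring on the median difference. Equal library medians gave 1382 higher and 585 lower, equal medians and median absolute deviations (MAD) gave 1222 and 451, and the pileup alone gave 659 and 1832. A region was called the same way under all 5 of these scalings, the reported one included, in 597 cases higher (15.7%) and 436 lower (11.5%). Quantile normalization and equal medians and SDs, which also equalise the spread, are not among the 5. Of the 597 higher regions, 151 were still called higher after quantile normalization and 225 with equal medians and SDs, and of the 436 lower regions, 393 and 264 were still called lower. Under all 7 scalings, 151 regions were higher and 255 lower.

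**Figure D1:**
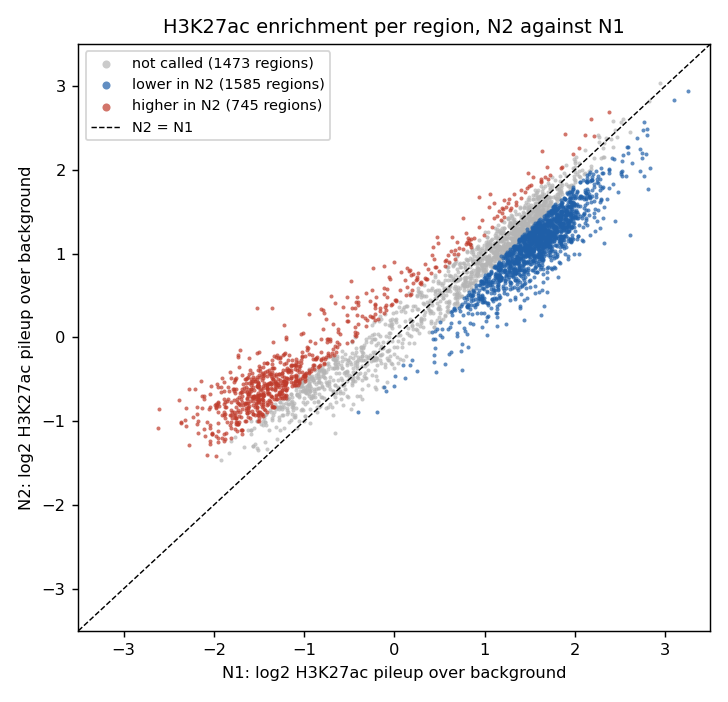
Enrichment of H3K27ac in N2 (vertical axis, log2 of pileup over background, mean of 2 libraries) against N1 (horizontal axis, same unit) for each of 3803 regions, with the 745 regions called higher in N2 in red, the 1585 called lower in blue and the others in grey. Most called regions with low enrichment in N1 lie above the dashed line of equality and most with high enrichment below it.

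**Figure D2:**
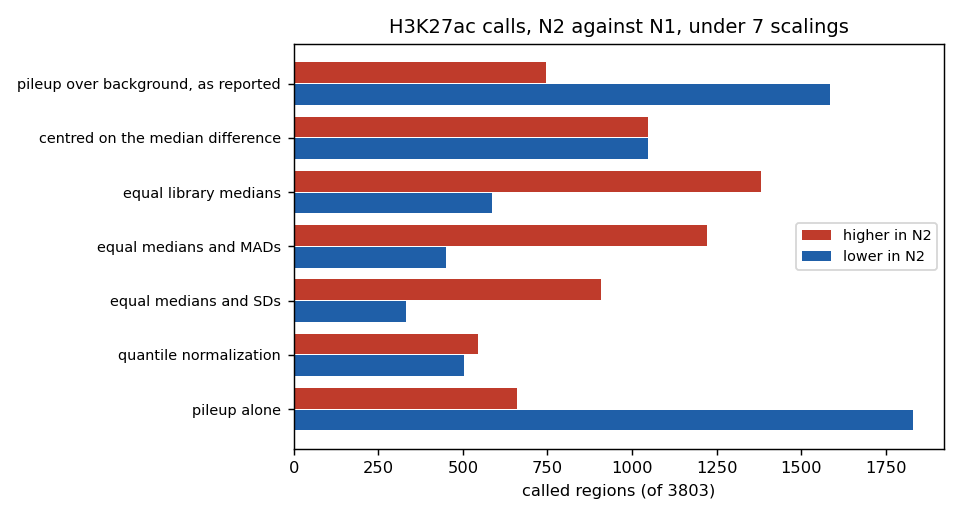
Number of regions called higher (red) and lower (blue) in N2 against N1 under 7 scalings, in bars that start at 0. Lower calls outnumber higher ones as reported (1585 and 745) and on the pileup alone (1832 and 659), and the balance turns with equal library medians (585 and 1382).

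As reported, the direction of the difference followed the level in nitrogen-replete cells. C0 does not enter the difference itself, but its libraries enter the estimate of the spread behind the calls. The classes by C0 level were ordered alike in N1, with a median N1 ratio of 0.44 in the lowest and 3.30 in the highest. The split is therefore not separate from the narrower spread in N2. Of the 1032 regions with a ratio under 1 in C0, 575 were higher and 21 lower in N2, with a median difference of 0.55. Of the 1726 regions with a ratio of 2 to 4 in C0, 63 were higher and 1042 lower (median -0.30), and of the 602 regions at 4 or more, 22 were higher and 392 lower (median -0.29). The 443 regions at 1 to 2 lay between, with 85 higher and 130 lower (median -0.08). Across regions, the C0 enrichment and the difference correlated at r = -0.73, a description of regions that share background and base composition. Under all 5 scalings, 496 regions of the lowest class were higher and 7 lower, against 13 higher and 87 lower at 4 or more. Under all 7, 61 regions of the lowest class were higher and 5 lower, against 13 higher and 32 lower at 4 or more. Such counts include the reported scaling, so a region in them keeps its reported direction. Taken alone, quantile normalization gave 63 higher and 62 lower in the lowest class, and 137 and 97 at 4 or more. Equal medians and SDs gave 138 and 30 in the lowest class, and 279 and 34 at 4 or more. The median of the lowest class was 0.83 with equal library medians, 0.61 with equal medians and MADs, 0.17 with equal medians and SDs and -0.01 after quantile normalization. That of the class at 4 or more was -0.01, 0.07, 0.21 and 0.02 in the same order, so its sign was set by the scaling.

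**Figure D3:**
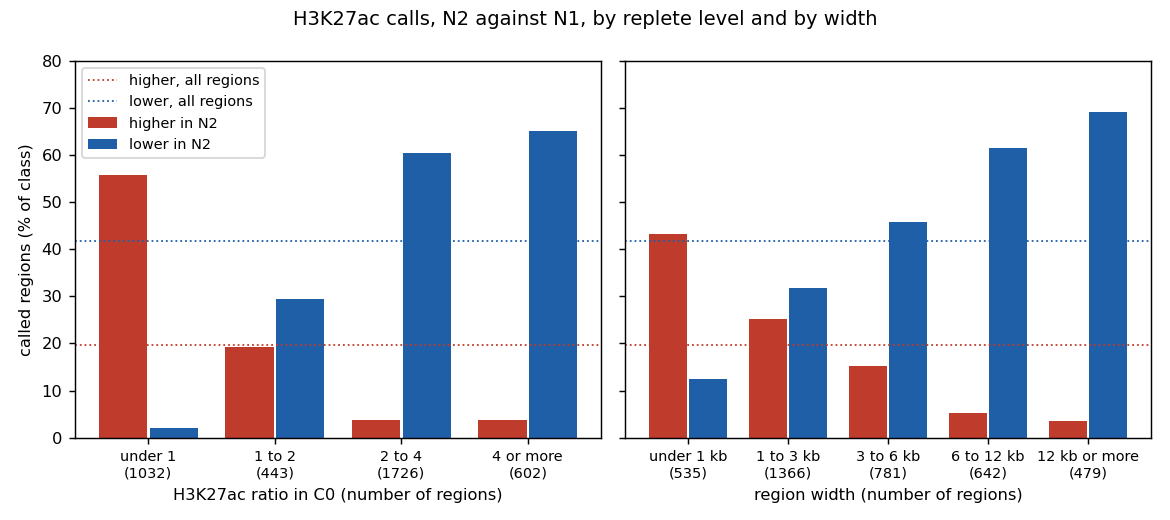
Share of regions called higher (red) and lower (blue) in N2 against N1, in percent of each class, by the H3K27ac ratio in C0 (left) and by width (right), with the number of regions in brackets and the shares over all regions as dotted lines. Higher calls take 55.7% of the lowest ratio class and 3.65% of each of both highest ones, and 43.2% of the narrowest and 3.55% of the widest regions.

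Most higher regions remained below background in N2, and most lower regions remained marked. Of the 745 higher regions, 545 (73.2%) still had a ratio under 1 in both N2 libraries, and 65 were at 2 or more in both. Of the 1585 lower regions, 924 (58.3%) were still at 2 or more in both N2 libraries and 20 were under 1 in both. Higher regions were short, with a median width of 1490 bp and 8.49% of the total length of the regions, whereas lower regions had a median width of 5389 bp and 59.0% of the length. In 329 regions both N1 libraries were at 2 or more and both N2 libraries under 2, and in 22 regions the reverse held. A ratio of 1 was crossed upwards by both libraries in 57 regions and downwards in 16. Crossings were counted on the reported scale only, on which the median ratio was lower in the N2 libraries.

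Among well-marked regions, those above the median of the mean enrichment over the 4 libraries, 51 were higher and 1255 lower, of which 25 and 335 were called under all 5 scalings. The balance was set by the scaling. Equal library medians gave 321 higher and 482 lower, quantile normalization 339 and 330, and equal medians and SDs 621 and 167. The 10 largest gains of this kind lay on 7 chromosomes and had ratios of 2.65 to 6.09 in N2, against 1.69 to 4.52 in N1. The largest was peak2206 (chr25:348131-355578, 7448 bp), with ratios of 3.13 and 3.23 in the N2 libraries, against 1.88 and 1.95 in the N1 libraries, a log2 difference of 0.73 ± 0.08 (SE, adjusted p = 1.12e-06). The C0 ratio there was 4.81, so the level in N2 lay between those of N1 and C0. The pileup alone gave 80.7 and 83.2 in N2, against 44.7 and 47.3 in N1, a log2 difference of 0.83.

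The gains in peak695 (chr13:888440-890350) and peak1864 (chr22:41997-43640) were next in size. In peak695 the ratio was 2.69 and 2.65 in N2, against 1.55 and 1.85 in N1, and it was 3.99 in C0. In peak1864 it was 3.03 and 3.54 in N2, against 2.00 and 2.17 in N1, with 4.20 in C0. The local background was lower in N2 at both. It differed by -0.49 in peak695 and -0.38 in peak1864 on the log2 scale, and the pileup alone differed by 0.17 and 0.27, which was called in peak1864 and not in peak695.

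Peak3620 (chr8:842746-871349), at 28604 bp, was the widest of these 10 gains. Its ratio was 5.36 and 5.39 in N2, against 3.40 and 4.01 in N1, a difference of 0.54 ± 0.08, and 6.43 in C0. Peak2138 (chr24:612025-619050) had the highest ratio of the 10 in N2. It had 6.18 and 6.01 in N2 and 4.67 and 4.37 in N1 (0.43 ± 0.07), while C0 was at 3.62, so that its level was above that of C0 at both times. Peak2235 (chr25:540246-546327), with 3.81 and 3.93 in N2 against 2.73 and 2.87 in N1 and 3.01 in C0, was also higher in N2 than in C0.

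In 7 of the 10 regions the gain was called under all 5 scalings. The exceptions were peak695, peak2255 (chr25:680470-684123) and peak1262 (chr18:461177-467744), where the background differed by -0.49, -0.42 and -0.42 and the pileup alone by 0.17, 0.17 and 0.08, which was not called. Peak2255 had ratios of 4.93 and 4.39 in N2, against 3.27 and 2.94 in N1, and peak1262 had 3.03 and 2.82 in N2, against 2.08 and 2.05 in N1. The remaining gains were in peak913 (chr15:419546-429136) and peak1918 (chr22:548771-551409), at 0.50 ± 0.09 and 0.44 ± 0.10.

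The 10 largest losses among well-marked regions were larger than the gains, at -1.39 to -0.99, and were called under all 5 scalings. Peak1423 (chr19:635808-637802) led them. Its ratio was 2.36 and 2.30 in the N2 libraries, against 6.37 and 5.85 in the N1 libraries, a difference of -1.39 ± 0.09 (adjusted p = 1.54e-08), and 1.17 in C0. The high level thus stood in N1, with N2 between N1 and C0. Peak2610 (chr29:493048-496620) had the highest ratios of the 10 in N1, with 3.13 and 3.70 in N2 against 8.25 and 5.95 in N1 (-1.04 ± 0.11) and 1.69 in C0. Peak1848 (chr21:775792-778752) likewise had 1.73 and 2.31 in N2, against 4.02 and 4.22 in N1, and 1.66 in C0.

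Other losses started from regions that were marked in C0. Peak1672 (chr20:236877-238741) had ratios of 2.16 and 2.22 in N2, against 4.77 and 5.27 in N1 (-1.19 ± 0.09), and 3.27 in C0. Peak1580 (chr2:1139686-1141008) had 2.45 and 2.79 in N2, against 5.46 and 5.37 in N1, and 3.29 in C0. In both, N2 was below C0 and N1 above it. In peak32 (chr1:206071-210823) the level in N1 was close to that in C0, at 3.30 and 3.14 in N1 and 3.13 in C0, and both N2 libraries were lower at 1.36 and 1.57 (-1.14 ± 0.10).

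Peak3750 (chr9:725520-729423) and peak419 (chr11:833831-835334) were lower by similar amounts. Peak3750 had 1.49 and 1.47 in N2, against 2.88 and 3.31 in N1, and peak419 had 1.76 and 1.2 in N2, against 3.11 and 2.96 in N1 (both -1.06). The N2 libraries of peak419 lay further apart than those of most of these regions, and its SE was the largest of the 10 at 0.13. Peak862 (chr15:63966-65021) and peak1831 (chr21:673480-674931) completed the list, at -1.09 ± 0.11 and -0.99 ± 0.09. The background was higher in N2 at all 10, by 0.05 to 0.47 on the log2 scale, and the pileup alone differed by -1.19 to -0.62.

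**Figure D4:**
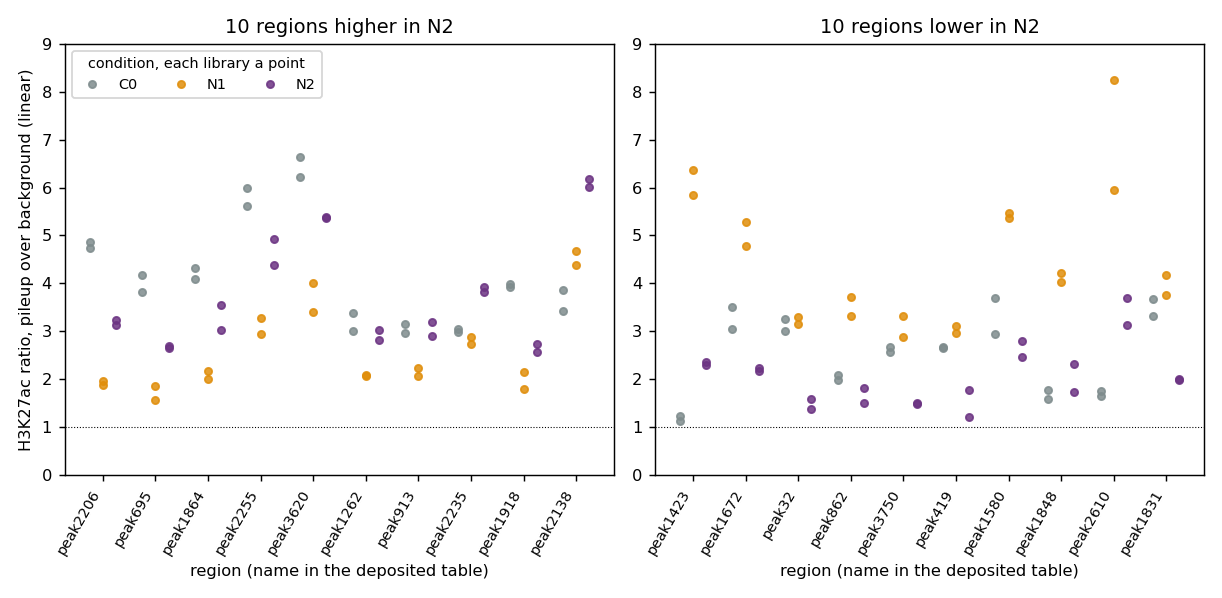
H3K27ac ratio (pileup over background, linear axis from 0, dotted line at 1) of both libraries of C0, N1 and N2 in the 10 largest gains (left) and losses (right) among well-marked regions. N2 points lie above N1 points in each region on the left and below them in each region on the right. On the right, both N1 points also stand above both C0 points in each region except peak32, by most in peak1423, peak1848 and peak2610. Picking the largest losses favours regions with high N1 values, and over all regions the median ratio was 2.26 in N1 and 2.55 in C0.

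Without the limit to well-marked regions, the largest losses added 3 short regions of 866 to 1175 bp. Peak2090 (chr24:287889-288819) had ratios of 1.16 and 1.25 in N2, against 2.99 and 3.19 in N1 (-1.36 ± 0.12), and 1.2 in C0, so that N2 was at the level of C0. Peak2725 (chr3:1010019-1011193) had 1.40 and 1.21 in N2, against 3.33 and 2.96 in N1 (-1.27 ± 0.12). Peak910 (chr15:401552-402417) had 1.09 and 1.23 in N2, against 2.70 in both N1 libraries (-1.22 ± 0.12). Of the losses ranked by their smallest size over the 5 scalings, peak792 (chr14:470024-470932) and peak1827 (chr21:633012-635890) were further ones, at -1.13 ± 0.16 and -1.07 ± 0.13. Both ended near background, with 0.81 and 0.72 in the N2 libraries of peak792 and 1.03 and 1.23 in those of peak1827.

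The largest gains of all regions lay where H3K27ac was near or below background. Peak3218 (chr6:413-1687), the first region of its chromosome, had ratios of 1.36 and 1.19 in N2, against 0.42 and 0.29 in N1, and 0.33 in C0 (1.87 ± 0.22, adjusted p = 1.73e-06). Peak256 (chr10:693745-695746) had 1.22 and 1.35 in N2, against 0.42 and 0.37 in N1 (1.72 ± 0.17), and differed from the other large gains in having 1.47 in C0. These 2 were above background in both N2 libraries. Peak1934 (chr22:658656-659175), peak989 (chr16:124437-125676) and peak1947 (chr23:594-1534) differed by 1.64 to 1.75 and stayed at 0.52 to 0.76 in the N2 libraries. In peak1947 the background was lower in N2 by -0.46 and the pileup alone differed by 1.18. By their smallest size over the 5 scalings, peak3657 (chr8:1230460-1231326), peak2072 (chr24:82405-83599), peak187 (chr10:52389-52832), peak2955 (chr4:753375-757214), peak1366 (chr19:227431-229660) and peak473 (chr12:74390-74768) were further gains, at 1.40 to 1.63.

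Coverage behind such gains was thin. In the 575 regions that were higher and had a ratio under 1 in C0, the median pileup was 12.8 and 12.6 in the N2 libraries (25 and 28 steps), against 7.00 and 7.24 in the N1 libraries (13 and 15 steps). In peak1934 the N1 pileups were 3.77 and 1.93, a handful of steps, and in peak187 they were 1.62 and 4.35. Values this small differed by a large factor between the libraries of the same condition. After quantile normalization the calls of peak187 and peak473 were lost, at 0.51 and 0.63.

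Higher regions with little acetylation in C0 had more H3K36me2 at the start than the median region. In these 575 regions H3K36me2 had a median ratio of 1.36 (C0), 1.23 (N1) and 1.11 (N2). It was 1.34, 1.24 and 1.12 over all 1032 regions with a C0 ratio of H3K27ac under 1, and 1.17, 1.12 and 1.11 over all regions. The C0 libraries of H3K36me2 held identical values, so its C0 level rests on 1 library. The highest H3K36me2 ratio of any region in C0 was 1.98. H3K36me2 was called higher in 84 and lower in 190 of the 575. Over the 1032 regions it was higher in 133 and lower in 362, and over all regions higher in 1029 (27.1%) and lower in 655 (17.2%). Lower calls outnumbered higher ones in the whole class of 1032, so this was not particular to the 575. Of the 10 gains ranked over the 5 scalings, 8 had a C0 ratio of H3K36me2 between 1.24 and 1.42, and peak3218 was at 0.28 and peak256 at 1.22. Without 1 library of N1 the H3K36me2 calls over all regions were 1112 (without replicate 1) and 1079 (without replicate 2) in place of 1684, and its spread over regions was also narrower in N2, with an SD of 0.33 in both libraries against 0.50 and 0.51 in N1. Its part in the result was not tested. When the regions were split into 4 groups of nearly equal size by the H3K36me2 level in C0, H3K27ac was higher in 286 and lower in 330 of 950 regions of the top group, and higher in 135 and lower in 384 of 951 of the bottom group. The C0 ratio of H3K27ac was under 1 in 51.1% of the top and 11.1% of the bottom group. The order of the higher calls turned after quantile normalization, with 62 in the top and 197 in the bottom group, and with equal medians and SDs, with 142 and 256.

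On the reported scale, the widest regions were lower in N2 more than any other width class. Of the 479 regions of 12 kb or more, 17 were higher and 331 lower (median difference -0.31), and of the 535 regions under 1 kb, 231 were higher and 67 lower (median 0.39). Width and C0 level go together, with a C0 ratio under 1 in 63.7% of the regions under 1 kb and 0.209% of those of 12 kb or more. Within the class with a C0 ratio under 1, 201 of 341 regions under 1 kb and 87 of 166 regions of 3 to 6 kb were higher, and within the class of 2 to 4, 35 of 84 regions under 1 kb and 197 of 282 of 12 kb or more were lower. With equal medians and SDs the medians of the 5 width classes were 0.10 to 0.15, without the difference between wide and short regions. The calls turned under that scaling, with 182 higher and 33 lower at 12 kb or more, and 78 and 41 under 1 kb. Equal medians and MADs gave 114 higher and 78 lower at 12 kb or more.

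The widest region that was lower was peak3596 (chr8:526093-598023, 71931 bp), which had ratios of 2.75 in both N2 libraries, against 4.54 and 4.41 in the N1 libraries (-0.70 ± 0.07), and 4.14 in C0. It was called under all 5 scalings, and its difference was -0.17 and no longer called with equal medians and SDs. Peak545 (chr12:666685-730874, 64190 bp) had 2.94 and 3.05 in N2, against 3.99 and 3.85 in N1 (-0.39 ± 0.07), and peak48 (chr1:343910-406968, 63059 bp) had 2.84 and 2.23 in N2, against 3.18 and 3.24 in N1 (-0.35 ± 0.10). Both lost their call with equal library medians, at -0.11 and -0.07, and changed sign with equal medians and SDs, at 0.17 and 0.11. The call of peak48 was also lost without N2 replicate 2, at -0.17. The widest regions that were higher were peak3128 (chr5:647564-680245, 32682 bp), peak3620 and peak1416 (chr19:575380-603103, 27724 bp). Peak3128 had 3.21 and 3.10 in N2, against 2.50 and 2.33 in N1, and peak1416 had 6.30 and 6.60 in N2, against 5.28 and 5.11 in N1 (0.31 ± 0.06) and 4.82 in C0.

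Regions near the ends of the chromosomes were higher more often than those further in. Of the 489 regions within 50 kb of the outermost region edge of their chromosome, 133 were higher and 126 lower (median 0.01), whereas of the 1933 regions at 200 kb or more, 287 were higher and 934 lower (median -0.21). Regions near the ends more often had a C0 ratio under 1, 37.6% against 21.8%. Within the class with a C0 ratio of 4 or more, 44.0% of 50 regions near the ends and 70.1% of 368 regions at 200 kb or more were lower, but at a C0 ratio of 1 to 2 regions near the ends were higher less often (13.4% of 67, against 19.5% of 220) and lower more often (35.8% against 27.3%). The balance at 200 kb or more turned under other scalings. Equal library medians gave 577 higher and 356 lower (median 0.06), equal medians and MADs 529 and 273, and equal medians and SDs 452 and 191. As reported, lower calls outnumbered higher ones on 29 of 30 chromosomes, but on 12 after centring, 10 after quantile normalization and 0 with equal library medians, and among calls made under all 5 scalings on 4. Chromosome 30, with 23 higher and 18 lower of 76 regions, was the exception as reported (median 0.15), followed by chromosome 23 (-0.01). The lowest medians were those of chromosome 2 (-0.26, with 18 higher and 94 lower of 180 regions) and chromosome 15 (-0.24).

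Long runs of neighbouring regions with the same call were mostly runs of lower regions on the reported scale, the only one on which runs were sought. Runs of at least 4 neighbouring regions called in 1 direction numbered 75 for lower regions, with 367 of the 1585 in them, and 4 for higher regions, with 18 of the 745. More regions were lower than higher to begin with on that scale, whereas equal library medians gave 1382 higher and 585 lower. No test was made of the difference. The longest run was of 9 regions over 83.5 kb on chromosome 15 (chr15:307285-390798, peak899 to peak907), with a median ratio of 2.25 in N2, against 3.20 in N1, and 3.49 in C0. Its regions nearly abut, with a largest gap of 534 bp between neighbours. Their differences were -0.88 to -0.22. The largest was in peak905 (chr15:354132-359095), at 0.68 and 0.82 in N2, against 1.42 and 1.34 in N1, and 4 of the 9 were called under all 5 scalings.

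Runs of 8 lower regions were found on chromosome 1 (chr1:337824-509302), chromosome 7 (chr7:495912-592931), chromosome 9 (chr9:387148-474540) and chromosome 20 (chr20:531926-619542), with median differences of -0.34, -0.45, -0.51 and -0.44. The run on chromosome 1 held peak48 and spanned 171.5 kb, and none of its regions was called under all 5 scalings. On chromosome 20, 3 of 8 were, led by peak1702 (chr20:531926-535117), with 2.35 and 2.29 in N2, against 4.11 and 4.04 in N1.

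The longest run of higher regions was of 6 on chromosome 9 (chr9:1234633-1288873, peak3798 to peak3803), which ends with the last region of that chromosome. Its median ratio was 0.56 in N2, against 0.24 in N1, and 0.27 in C0, so it stayed below background, and each of the 6 was called under all 5 scalings. H3K36me2, at ratios of 0.19 to 0.36 in C0, was not enriched there, and the median difference of H3K36me2 over the run was 1.01. The other runs of 4 were on chromosome 19 (chr19:123643-138987), chromosome 25 (chr25:475120-491870) and chromosome 24 (chr24:612025-635779). The run on chromosome 24 differed from the others in that it began with the strongly marked peak2138 and also held peak2140 (chr24:633042-634352), with 3.54 and 3.89 in N2 and 3.07 and 3.10 in N1, between 2 regions with ratios under 1.

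**Figure D5:**
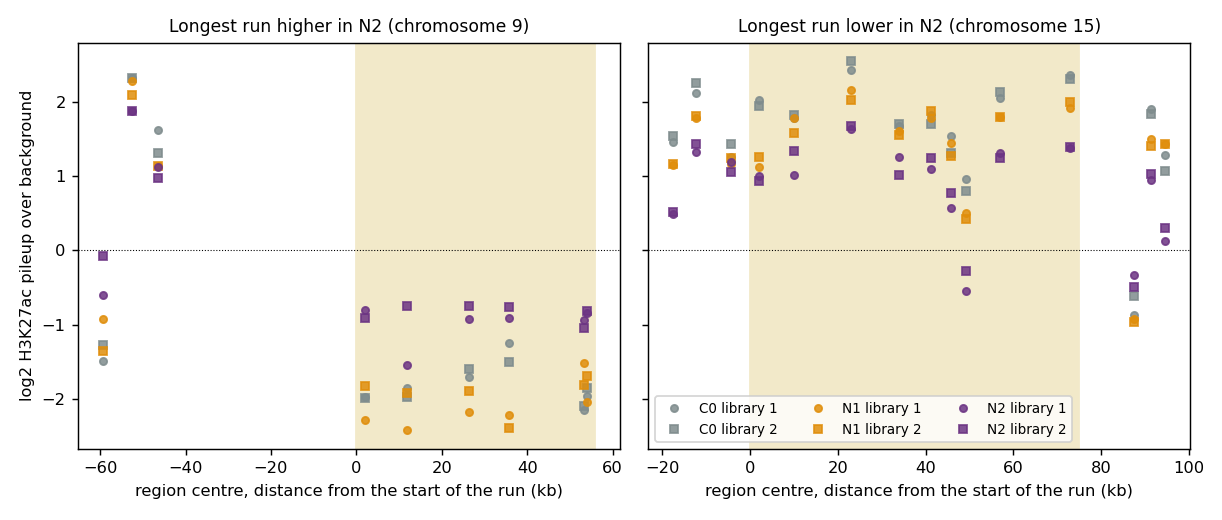
Enrichment of H3K27ac (log2 of pileup over background, dotted line at 0) in both libraries of C0, N1 and N2 by the distance of the region centre from the start of the run, for the longest run of higher regions (left, 6 regions on chromosome 9) and of lower regions (right, 9 regions on chromosome 15). Shading marks the run, with neighbouring regions beside it. Within the shading, N2 lies above N1 but below 0 on the left, and on the right N2 lies below N1 and, except in peak905, above 0.

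Over all regions Kcr was higher in 435 (11.4%) and lower in 284 (7.47%), with a median ratio of 1.85 in N2 against 1.69 in N1 and a median difference of 0.01. Both marks have nearly the same background values, and on the pileup alone Kcr was higher in 2045 regions (53.8%) and lower in 9 (0.237%), so its balance was set by the scaling. The Kcr libraries of N2 held identical values and entered once. Of the 745 regions with more H3K27ac, Kcr was higher in 127 and lower in 30. Of the 1585 with less H3K27ac, it was lower in 221 and higher in 59. The 221 regions were 13.9% of those with less H3K27ac and 77.8% of those with less Kcr.

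The change in H3K27ac exceeded that in Kcr in 445 regions (11.7%) and fell below it in 999 (26.3%), in 1 limma fit over both marks, a comparison added after the data were seen. In regions with a C0 ratio under 1 the difference between the changes was positive in 415 and negative in 15 of 1032 (median 0.71), and in those of 2 to 4 it was positive in 10 and negative in 668 of 1726 (median -0.33). Over all regions the balance turned under other scalings. Equal library medians gave 961 positive and 46 negative, equal medians and MADs 1205 and 117, equal medians and SDs 958 and 124, and centring 547 and 373. After quantile normalization of each mark 41 and 38 were called.

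Kcr was called the same way as H3K27ac in several of the well-marked regions named above. Among the 10 gains, Kcr was higher in 4 and lower in 0. Among the 10 losses it was lower in 7 and higher in 0. Over all regions it was higher in 11.4% and lower in 7.47%. Both marks have nearly the same background, which differed by -0.49 to 0.22 at the gains and by 0.05 to 0.47 at the losses. A background that is higher in N2 lowers both ratios by itself, and its part was not tested. In peak2206 the Kcr ratio was 2.06 in N2, against 1.07 in N1 (0.94 ± 0.16), and in peak2610 it was 1.85 in N2, against 3.56 in N1 (-0.94 ± 0.12). Peak3750 and peak419 differed from these. Kcr there was 2.09 and 1.78 in N2, against 2.03 and 1.54 in N1, and the change in H3K27ac was below that in Kcr by 1.10 and 1.26 (adjusted p = 0.000118 and 0.000148). In peak2138, Kcr was 2.57 in N2, against 2.80 in N1, and the change in H3K27ac exceeded that in Kcr by 0.55 (adjusted p = 0.00216).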

How the data were processed

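H3K27ac, Kcr and H3K36me2 ChIP-seq was analysed in C0, N1 and N2, with 2 libraries per mark and condition. Per the submitters' processing notes and the study's methods, the authors used Trim Galore, BWA, Picard, deepTools and MACS2 (broad peaks against input). Their versions, how regions were merged and how pileup was summarised over a region were not given in the sources used here. Used were the coverage signal (pileup) and local background (lambda) that the authors deposited per library and region. They are not read counts, so no count test was run. The 36 columns of 12 libraries that the labels do not cover were not used. The columns of fold changes, p-values and status deposited by the authors for their own comparisons were not used either.

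Enrichment was log2(pileup + 0.5) minus log2(lambda + 0.5), a scale that understates changes at low values. Limma-trend (limma 3.58.1, R 4.3.3) was fitted per mark to the libraries of C0, N1 and N2, with 3 residual degrees of freedom for H3K27ac. The Benjamini-Hochberg adjustment ran over 3803 regions, and regions were called at an adjusted p under 0.05. The identical libraries of H3K36me2 in C0 and Kcr in N2 entered once. An exact two-sided permutation test of 2 against 2 libraries cannot go below 0.33, so none was used. The background of different marks in the same condition correlated at r of at least 0.991 across regions, and lambda differed between N2 and N1 by -0.28 to 0.19 (5th to 95th percentile, log2).

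Regions named were, in each direction, the 10 largest differences among called regions whose libraries did not overlap and whose mean enrichment was above the median, the 5 largest without that limit, the 10 with the largest smallest difference over 5 scalings, the 3 widest, and the longest runs, besides the 2 chromosomes with the highest and the 2 with the lowest median. Members of runs, such as peak905, peak1702 and peak2140, were singled out after their values were seen. Regions, classes and tests were chosen with earlier results of these data known. The test was checked on simulated data. Alternatives were other scalings, pseudocounts of 0.1 and 2, other sets of regions and libraries, no intensity trend, a replicate block and leaving out each library.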

Additional observations from a re-analysis of the deposited data

Results flagged for a closer look

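In 2 of the named regions H3K27ac and Kcr were called in opposite directions between N2 and N1, and the difference between the changes passed the test in the fit over both marks. In peak1416 (chr19:575380-603103), H3K27ac was higher in N2, with ratios of 6.30 and 6.60 against 5.28 and 5.11 in N1, while Kcr was lower, with 2.92 in N2 against 3.83 in N1. The change in H3K27ac exceeded that in Kcr by 0.70 (log2, adjusted p = 0.000118). In the short peak473 (chr12:74390-74768), H3K27ac was higher in N2, with 0.66 and 0.57 against 0.25 and 0.22 in N1, and Kcr was lower, with 0.33 in N2 against 0.60 in N1. The difference between the changes was 2.25 (adjusted p = 0.000239), at N1 pileups of 4.31 and 3.86. After quantile normalization it was 0.34 (adjusted p = 0.0891) in peak1416 and 1.18 (adjusted p = 0.0983) in peak473, and on the pileup alone 0.28 and 1.89, both past the threshold. Kcr in N2 rests on 1 library.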

How the results depend on the processing

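The H3K27ac counts moved more with the scaling than with the omission of a library. The number of higher regions (745) was 1382 with equal library medians, 1222 with equal medians and MADs, and 58 in the fit limited to well-marked regions. The number of lower regions (1585) was 1047 after centring, 585 with equal medians, 451 with equal medians and MADs, 504 after quantile normalization (with 546 higher) and 332 with equal medians and SDs (with 907 higher), the last chosen after seeing the data. The median difference (-0.145) was 0.000, 0.131, 0.140 and 0.114 with centring, equal medians, equal medians and MADs, and equal medians and SDs, -0.007 after quantile normalization, -0.216 on the pileup alone and -0.320 in well-marked regions. Kcr calls (719) were 1883 with equal medians and MADs, 2054 on the pileup alone, 388 in well-marked regions, 235 without the intensity trend and 1286 with equal medians and SDs. H3K36me2 calls (1684) were 1110 after quantile normalization and 725 in well-marked regions. Calls for the difference between the changes in H3K27ac and Kcr (1444) were 920 after centring, 79 after quantile normalization, 2838 on the pileup alone and 703 in well-marked regions. Leaving out a library gave 548 to 659 higher and 1336 to 1489 lower regions, and 1079 to 1367 H3K36me2 calls, in which an arm with 1 library was assumed to vary like the others. Pseudocounts of 0.1 and 2 left 743 and 758 higher and 1582 and 1595 lower. Of 640 values for the 41 named regions under these alternatives, 623 kept their direction and call, 15 lost the call and 2 changed sign. The sign changed in peak545 (to 0.17) and peak48 (to 0.11), with equal medians and SDs. The count of 623 is no measure of robustness, because part of the regions were chosen by their smallest difference over 5 scalings. Those scalings are among the alternatives. Dropping the intensity trend or fitting N1 and N2 only leaves the difference itself as it is. Replicate numbers do not pair the libraries, since deviations of same-numbered libraries correlated at -0.015 to 0.034, and with a replicate block 724 regions were higher and 1567 lower.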

Other observations

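In 7 regions H3K27ac had a ratio under 1 in C0 and was called lower in N2 than in N1 under all 5 scalings, a selection made after the values were seen. Peak1118 (chr17:162269-166306) was at 0.58 in C0, 7.00 and 6.58 in the N1 libraries and 3.55 and 4.03 in the N2 libraries, with a difference of -0.84 ± 0.10 between N2 and N1. Peak479 (chr12:113172-119603) had 0.78 in C0, 3.87 and 3.84 in N1, and 2.31 and 2.67 in N2 (-0.63 ± 0.12). The level in N2 stood above that of C0 in both. The other 5 were 598 to 1290 bp wide and had N1 ratios of 1.49 to 2.71, and in peak416 (chr11:801974-802571) N2, at 0.83 and 0.92, was close to C0 at 0.94.

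Of the 89 regions called in opposite directions for H3K27ac and Kcr, 30 were higher in H3K27ac and lower in Kcr, at a median H3K27ac ratio of 0.60 in N2, against 0.32 in N1, and a median Kcr ratio of 0.40 in N2, against 0.73 in N1. These carried H3K36me2 at a median ratio of 1.38 in C0. Of the 30, 28 had a C0 ratio of H3K27ac under 1, and over all 1032 such regions the median H3K36me2 ratio was 1.34. The other 59 were lower in H3K27ac, at a median ratio of 1.89 in N2, against 2.44 in N1, and higher in Kcr, at 2.07 in N2, against 1.54 in N1. The 30 were 4.03% of the regions with more H3K27ac, where Kcr was lower in 7.47% of all regions. The 59 were 3.72% of those with less H3K27ac, where Kcr was higher in 11.4% of all regions. On the pileup alone the marks were called in opposite directions in 2 of the 30 and 54 of the 59. It was 30 and 16 after centring and 1 and 13 after quantile normalization, so which kind is seen depends on the scaling.

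The 22 regions in which both libraries crossed a ratio of 2 upwards were higher by a median of 0.33, and Kcr was called higher in 17 of them and lower in 0, against 435 of 3803 regions over the table. H3K27ac was called higher in 17 of the 22, and in 5 under all 5 scalings. Both marks have nearly the same background, which differed there by a median of -0.19. On the pileup alone the median difference was 0.18 in H3K27ac and 0.71 in Kcr, against -0.22 and 0.35 over all regions. The part of the shared background was not tested. Peak2569 (chr29:192448-194645) had H3K27ac ratios of 2.29 and 2.07 in N2, against 1.38 and 1.41 in N1, with 3.0 in C0, and a Kcr ratio of 1.99 in N2, against 0.76 in N1.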
